A study of Homo sapiens with 18 samples.

Results

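Cells labelled U937 and cells labelled THP-1 were compared in their control state, with an empty vector and no drug. The 6 libraries were chosen by their labels, 3 of U937 and 3 of THP-1, from 18 in the series. The series followed S100A9 knockdown in U937 cells, S100A9 overexpression in THP-1 cells, and a drug treatment of the THP-1 cells. Both groups used here carried wild-type S100A9, were described as acute myeloid leukemia, and had been transduced with a lentivirus without an insert. They were grown in RPMI 1640 and selected with puromycin at 2 µg/mL, begun 48 h after transduction and held for at least 24 h. Each empty vector was the control of a different experiment in its own line, so the line, the vector and the transduction cannot be told apart. The labels do not tell whether the 3 replicates of a group were cultured separately. The p-values set the difference between the groups against the spread among libraries within a group, which can be technical.

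U937 and THP-1 are established human lines of the monocytic lineage, used as models of immature monocytes that can be driven toward macrophages. Monocytes arise from progenitors under the transcription factors PU.1 (gene SPI1), the C/EBP family and IRF8, lose HOX and stem cell genes on the way, and gain Fc receptors, Toll-like receptors and MHC class II. U937 is known for a fusion of PICALM with MLLT10 and THP-1 for a fusion of KMT2A with MLLT3, both of which keep HOXA genes active. Promoters rich in CpG, the dinucleotide at which human DNA is methylated, can in some cases carry long-lasting silencing in cell lines.

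The U937 libraries held 41.9, 49.4 and 49.5 M counts and the THP-1 libraries 61.4, 49.7 and 49.8 M (M stands for 1000000 counts). U937 empty vector 2 stood apart from the other two U937 libraries. The chi-square per degree of freedom was 8.05 between U937 1 and 3, 135 and 142 between either of them and U937 2, and 12.3 to 37.2 among the THP-1 libraries. Between U937 1 or 3 and the THP-1 libraries it was 100 to 126, so by this measure U937 2 lay farther from its own group than its fellows lay from THP-1. Between U937 2 and the THP-1 libraries it was 162 to 227. Genes at least 4-fold apart gave another order: 56 and 58 of 11996 between U937 2 and its fellows, 24 between U937 1 and 3, 21 to 27 among THP-1 libraries and 419 to 485 across lines. Counts of genes from the fit are therefore also given without U937 2, for the whole fit and for the gene lists.

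The labels were set against genes that define the lines. HSD17B7, an enzyme of cholesterol synthesis that cholesterol-dependent U937 cells are known to lack, had no count in the 6 U937 libraries of the series and at least 1.94 CPM (counts per 1000000 counts of the library) in each of its 12 THP-1 libraries. CDKN2A, a cell cycle inhibitor gene that THP-1 is known to have lost by deletion, went against the label. It stood at 59.8, 58.6 and 52.3 CPM in the libraries labelled THP-1 and at 56.1, 75.7 and 57.2 CPM in those labelled U937. In the 12 libraries labelled THP-1 the range was 46.6 to 59.6 CPM. Its neighbour MTAP was at 85.7, 82.3 and 80.9 CPM in the THP-1 control libraries. The names U937 and THP-1 below mean the libraries so labelled. Markers of the monocyte lineage were present in both: CD33 lay between 82.1 and 92.8 CPM and SPI1 between 81.2 and 116 CPM in the 6 libraries. CD14, the lipopolysaccharide co-receptor of mature monocytes, stayed at or below 0.483 CPM in all 6.

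S100A9, the calcium-binding protein gene of the study, did not separate the lines. It was at 6.83, 4.49 and 7.10 CPM in U937 and at 9.29, 3.90 and 6.04 CPM in THP-1. These values overlapped, and the log2 difference, U937 minus THP-1 here and throughout, was -0.07 (SE 0.34, adjusted p = 0.909). Its partner S100A8 was at 0.559, 0.466 and 0.747 CPM against 1.07, 0.805 and 0.594 CPM and did not pass the test either (adjusted p = 0.326). S100A12, the third gene of this group, was too low to be tested.

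Of 13695 genes tested in edgeR's fit of the 6 libraries, 3583 differed at an adjusted p below 0.05, which is 26.2%. In all, 1557 genes (11.4%) were higher in U937 and 2026 (14.8%) higher in THP-1. Of 988 genes (7.21%) that also differed at least 4-fold, 122 (0.891%) were higher in U937 and 866 (6.32%) higher in THP-1. Among those under 4-fold, 1435 were higher in U937 and 1160 higher in THP-1. The median log2 difference of all genes tested was -0.016. Without U937 2 the counts were 2746 and 3365, and at 4-fold 128 and 991. The total fell to 2122 without THP-1 2 and to 2355 without THP-1 3, where the 4-fold counts were 117 and 834 in each case. The libraries of the groups did not overlap for 6219 genes, 45.4% of those tested.

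**Figure D1:**
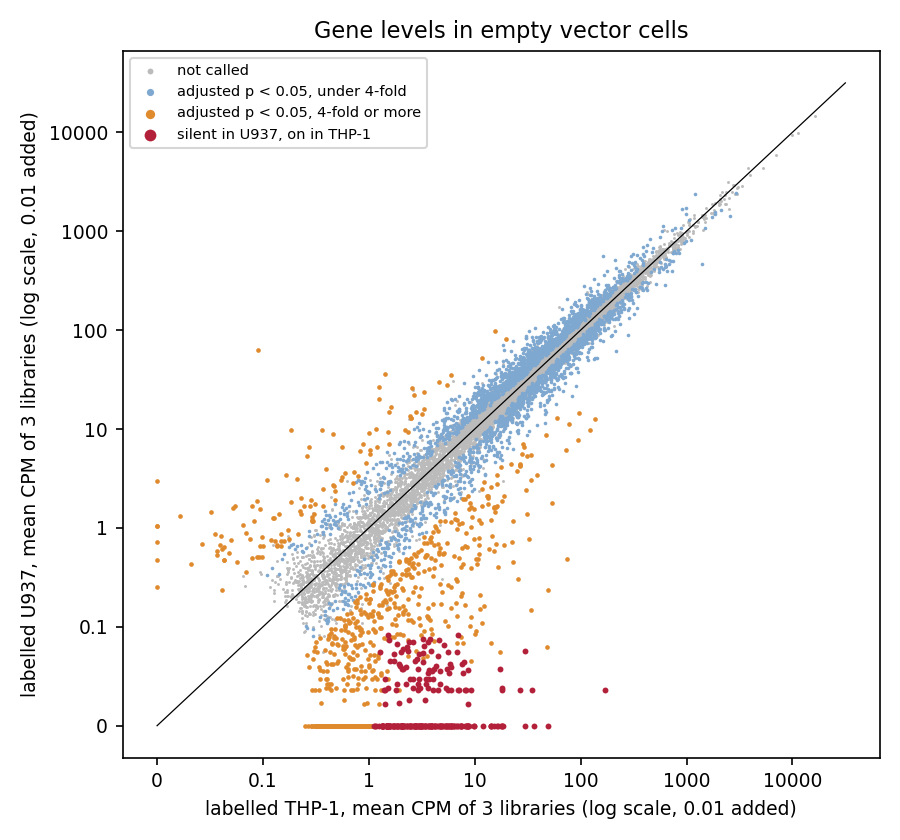
Mean level of each tested gene in the U937 empty vector libraries (vertical axis, log10 scale, CPM) against the THP-1 empty vector libraries (horizontal axis, log10 scale, CPM), 3 libraries each. To show genes at 0, 0.01 CPM was added. Blue points differed at an adjusted p below 0.05 by under 4-fold and orange points by 4-fold or more, and the red points along the bottom are the 268 genes silent in U937 and on in THP-1, which have no match along the left edge.

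The sharpest difference was a set of genes that had no or almost no reads in U937 and were plainly transcribed in THP-1. A gene was called on in a line with at least 1 CPM in each of its 3 libraries, and silent with under 0.1 CPM in each. By this rule 268 genes were silent in U937 and on in THP-1, which is 2.26% of the 11857 genes on in THP-1. In the other direction there was 1, FLT1, of 11267 genes on in U937 (0.00888%). Another 11115 genes were on in both and 3406 silent in both. Genes between the limits in 1 line were less one-sided. There were 940 silent in U937 and between in THP-1, against 273 silent in THP-1 and between in U937. A further 474 were on in THP-1 and between in U937, against 151 on in U937 and between in THP-1. Of the 268, 175 had no count in the 3 U937 libraries, 45 had 1 to 3 counts and 48 had more, and 267 are protein-coding. Their level in THP-1 ran from 1.12 to 169 CPM with a median of 3.19 CPM. A stricter limit of 5 CPM for an on gene left 62 and 0, and counting as silent a gene with at most 3 counts over its group left 220 and 0. Leaving out each library in turn gave 270 to 301 genes silent in U937 and 1 to 4 silent in THP-1. Without U937 2 the counts were 289 and 3, and without U937 1 or THP-1 2 there were 4 silent in THP-1. FLT1, a receptor for vascular endothelial growth factors, averaged 1.64 ± 0.245 CPM in U937 (SD, n = 3) and had 11 counts in THP-1, a ratio of 23.9 with an exact 95% counting interval of 13.1 to 48.5. Counting intervals and floors cover counting error alone.

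The following stretches are the 250 bases that end at the annotated start of 5 silent genes, shown as examples of CpG-dense and CpG-poor starts. Over the 200 matched starts of the silent set the number of CG ran from 0 to 52. They were taken from RefSeq on GRCh38.p14 and are written 5′ to 3′ on the strand of the gene, and capitals mark each CG dinucleotide. EPB41L2 (chr6:131063246-131063495, minus strand) holds 35 of them, HMGN3 (chr6:79234683-79234932, minus) 18, HSD17B7 (chr1:162790452-162790701, plus) 23, MGMT (chr10:129466991-129467240, plus) 36 and LILRB4 (chr19:54662735-54662984, plus) 3.
EPB41L2: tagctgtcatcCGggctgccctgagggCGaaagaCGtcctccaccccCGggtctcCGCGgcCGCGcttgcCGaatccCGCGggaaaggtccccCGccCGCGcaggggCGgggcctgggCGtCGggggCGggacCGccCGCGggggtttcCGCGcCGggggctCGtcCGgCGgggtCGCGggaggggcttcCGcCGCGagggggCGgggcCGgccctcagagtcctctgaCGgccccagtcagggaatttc
HMGN3: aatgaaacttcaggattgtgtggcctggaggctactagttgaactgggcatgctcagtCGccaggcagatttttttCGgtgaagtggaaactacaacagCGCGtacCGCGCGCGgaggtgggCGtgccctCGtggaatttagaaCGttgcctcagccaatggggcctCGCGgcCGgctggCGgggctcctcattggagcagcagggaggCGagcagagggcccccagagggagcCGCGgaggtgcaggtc
HSD17B7: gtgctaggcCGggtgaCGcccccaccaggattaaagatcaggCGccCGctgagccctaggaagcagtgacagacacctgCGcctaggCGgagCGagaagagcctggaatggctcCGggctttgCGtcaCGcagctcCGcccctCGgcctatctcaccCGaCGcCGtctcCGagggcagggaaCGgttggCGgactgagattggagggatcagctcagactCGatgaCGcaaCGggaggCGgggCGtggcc
MGMT: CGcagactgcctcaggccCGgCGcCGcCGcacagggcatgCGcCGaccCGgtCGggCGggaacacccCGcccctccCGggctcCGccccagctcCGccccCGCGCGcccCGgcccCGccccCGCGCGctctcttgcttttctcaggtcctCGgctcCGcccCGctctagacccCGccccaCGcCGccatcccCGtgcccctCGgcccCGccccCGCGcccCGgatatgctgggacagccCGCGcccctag
LILRB4: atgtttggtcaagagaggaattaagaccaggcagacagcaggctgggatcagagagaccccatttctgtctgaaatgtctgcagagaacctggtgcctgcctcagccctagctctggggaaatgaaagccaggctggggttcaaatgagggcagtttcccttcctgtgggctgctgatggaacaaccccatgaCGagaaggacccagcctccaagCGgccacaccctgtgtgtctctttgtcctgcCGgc

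The first of these, EPB41L2, encodes a membrane skeleton protein of the band 4.1 family. It had no count in U937 and stood at 44.6, 49.4 and 52.6 CPM in THP-1. Against the floor of 3 counts over the U937 group, which is 0.0213 CPM, it was at least 2282-fold higher in THP-1. HMGN3, a nucleosome-binding protein gene, had no count against 33.9, 34.7 and 39.2 CPM, at least 1681-fold. HSD17B7 had none against 3.09, 2.78 and 3.52 CPM. MGMT, which repairs alkylated guanine in DNA, had 7 counts in U937 and averaged 2.27 ± 0.197 CPM in THP-1, a ratio of 45.4 (95% interval 21.8 to 113.8). LILRB4, an inhibitory immunoglobulin-like receptor of monocytes, also had 7 counts and averaged 30.1 ± 2.88 CPM in THP-1, a ratio of 601 (292 to 1497).

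CA2, a cytosolic carbonic anhydrase gene, had the highest CPM of the set. It had 2 counts in U937, both in U937 2, against 153, 169 and 185 CPM in THP-1, a ratio of 11830 (95% interval 3276 to 97720). Of the other genes among the 15 with the highest CPM, several are regulators of development. ZNF521, a zinc finger gene of stem and progenitor cells, averaged 18.5 ± 1.95 CPM in THP-1 and was at least 864-fold higher there. TBX18, a T-box factor, was at least 850-fold higher, TRPS1, a GATA-type repressor, at least 812-fold, and SKIDA1 at least 762-fold. ADGRL2, an adhesion G protein-coupled receptor, averaged 30.0 ± 2.53 CPM (at least 1408-fold), and the lysosomal membrane gene LAPTM4B 18.0 ± 1.07 CPM (at least 842-fold). AKR1C2 and AKR1B1, reductases of ketones and aldehydes, each had 2 counts in U937 and averaged 35.0 ± 9.80 and 18.0 ± 0.963 CPM in THP-1. AKR1C2 is nearly identical to AKR1C1, and how reads were shared between them is not known. CLIC5, BLMH and CLSTN2 completed the 15, at 26.6, 18.1 and 17.5 CPM in THP-1. Further down the list stood immune and lineage genes: the factor CEBPD, with 4 counts in U937 and 3.25, 5.83 and 3.94 CPM in THP-1, and the antigen-presenting chain HLA-DQB1.

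The state held in libraries that the rule had not used. In the 3 U937 libraries with S100A9 knockdown, 252 of the 268 genes were silent, 16 were between the limits and 0 were on. In the 3 THP-1 libraries with S100A9 overexpression 254 were on and 14 between. Under the drug 200 were on with the empty vector and 212 with overexpression, and 0 of the 268 were silent in any THP-1 group. EPB41L2 had a mean of 0.00806 CPM after knockdown and 47.9 CPM with overexpression, and HMGN3 0 and 31.0 CPM. When the same rule was applied to the knockdown and overexpression libraries alone, 334 genes were silent in U937 and on in THP-1, and 3 the reverse.

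**Figure D2:**
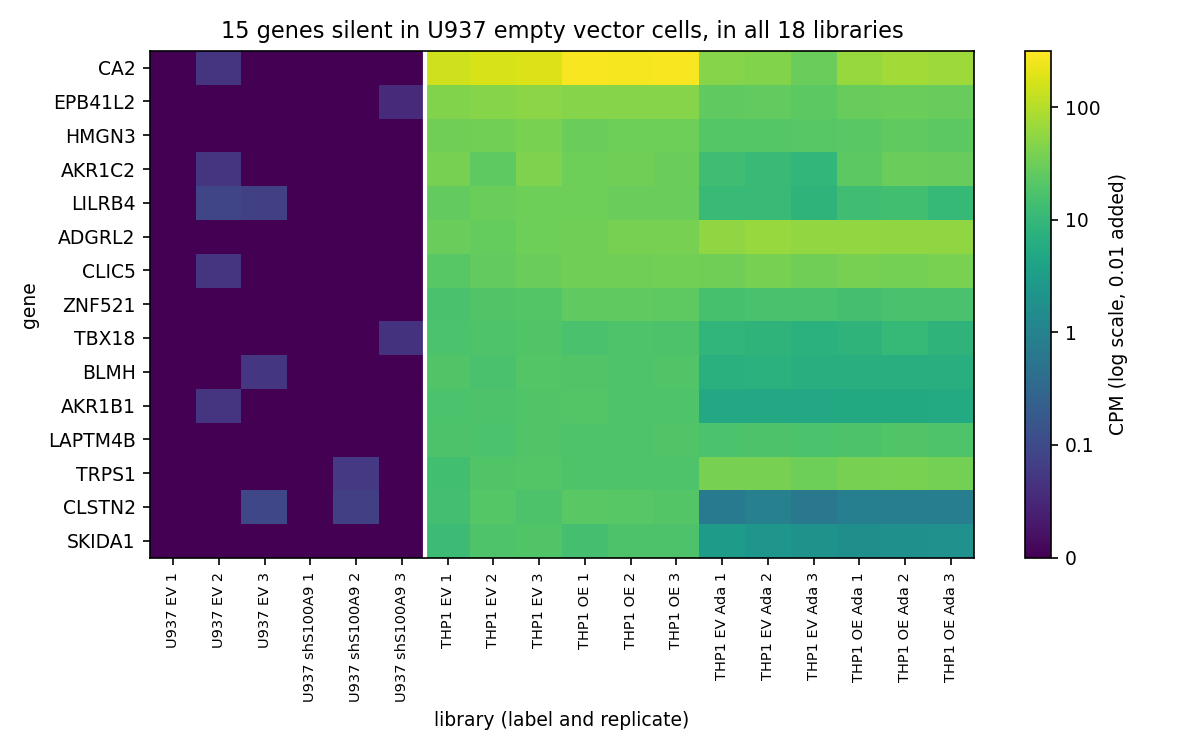
Levels of the 15 silent genes with the highest CPM (rows) in all 18 libraries of the series (columns; EV is empty vector, shS100A9 knockdown, OE overexpression and Ada drug), coloured on a log10 scale of CPM with 0.01 added. The genes are dark in the 6 U937 libraries and brighter in the 12 THP-1 libraries. Several were lower under the drug, such as CA2 at 40.7 CPM with the empty vector and drug. CLSTN2 fell below the on limit, to means of 0.742 CPM with the empty vector and drug and 0.842 CPM with overexpression and drug. Others were higher under the drug, such as ADGRL2 at 59.8 CPM with the empty vector and drug.

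In CpG content, promoters of the silent set were near those of all genes of the table. They lay between those of genes on in both lines and genes silent in both. RefSeq starts were matched for 200 of the 268 genes. In the 250 bases before the start, 131 of these 200 (65.5%) were CpG-rich, here an observed to expected CpG ratio of at least 0.6 with a GC content of at least 50%. The share was 79.4% (7234 of 9114) for genes on in both lines, 29.5% (694 of 2352) for genes silent in both and 64.1% (9200 of 14356) for all genes of the table. The median number of CG was 16.5 in the silent set, 21 in genes on in both, 6 in genes silent in both and 18 over all genes. At least 1 CG, which reads the same on both strands, was held by 97.6% of all promoters of this length. DNA methylation was not measured.

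**Figure D3:**
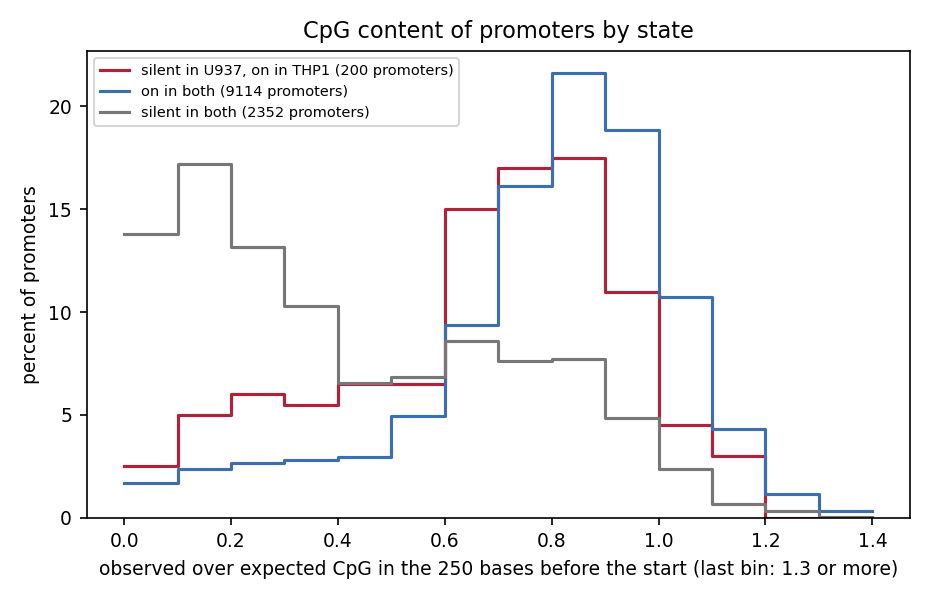
Distribution of the observed to expected CpG ratio (horizontal axis, no unit) in the 250 bases before the start, as percent of genes in each set (vertical axis), for genes silent in U937 and on in THP-1, on in both and silent in both. The silent set lies between the other sets: 65.5% of its promoters were CpG-rich, against 79.4% and 29.5%. Over all genes of the table, which are not drawn, the share was 64.1%.

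Some silent genes were neighbours. Stretches of consecutive protein-coding genes that were all under 0.1 CPM in every library of a line, with at least 2 of them on in the other line, numbered 27 for U937. For THP-1 the number was 0, which was fixed in advance, since only 1 gene was silent there and on in U937. How many neighbours a set of 268 genes would hold by position alone was not tested. The 27 stretches held 60 of the 268 genes. The run with the most of them lay on chromosome X from 103356489 to 103630953 and held TCEAL9, BEX3, TCEAL4, TCEAL3 and TCEAL1, small proteins of the BEX and TCEAL family. In THP-1 these averaged 1.33, 6.68, 5.94, 3.17 and 1.83 CPM, and none had a count in U937. On chromosome 17, from 41565841 to 41624842, the keratin genes KRT9, KRT16 and KRT17 had no count in U937 and averaged 7.53, 1.78 and 2.17 CPM in THP-1. Reads of KRT16 and KRT17 can be shared with near-identical copies. CAV2 and CAV1, the caveolin pair on chromosome 7, formed another run, in which CAV1 was at least 226-fold higher in THP-1. The zinc finger genes of chromosome 19 gave runs such as ZNF737, ZNF66 and ZNF85. The longest by gene count reached from ZNF43 to ZNF730 and held 10 genes, 2 of them on in THP-1. Zinc finger genes of this cluster are alike in sequence, so their counts are uncertain.

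Genes with the largest differences toward U937 were mostly on in both lines. RYR2, a calcium release channel best known in heart muscle, was at 30.4, 45.2 and 32.4 CPM in U937 and at 1.14, 1.57 and 1.54 CPM in THP-1 (log2 difference 4.67, SE 0.22, adjusted p = 5.05e-05). TBXA2R, the thromboxane A2 receptor, was at 27.8, 22.4 and 28.9 CPM against 1.30, 1.35 and 1.09 CPM. AFDN, the junction protein afadin, was at 25.4, 27.6 and 24.6 CPM against 2.31, 2.05 and 3.29 CPM. SLAMF8, a myeloid receptor of the SLAM family, showed more spread, at 27.1, 11.3 and 21.3 CPM against 2.59, 0.563 and 0.594 CPM. The scavenger receptor and fatty acid transporter CD36 was at 28.4, 13.3 and 30.0 CPM against 3.98, 3.14 and 2.77 CPM (log2 difference 2.85, adjusted p = 0.00110). The steroid sulfatase STS, the folate transporter SLC46A1, CRACDL and MFAP4 completed the rule, with log2 differences of 3.27, 3.09, 3.06 and 3.37. MFAP4 was at 9.38, 30.3 and 9.81 CPM in U937 against 0.924, 1.71 and 2.20 CPM, and without U937 2 its log2 difference was 2.58 (adjusted p = 0.000588). That of SLAMF8 was 3.96, and 5.10 without THP-1 1. KBTBD11-OT1 had the largest log2 difference (9.67), with 55.9, 79.2 and 54.4 CPM in U937 and 0, 0.241 and 0 CPM in THP-1, so the size of its difference rests on the counts in THP-1 2. It did not follow the line in the rest of the series: it ranged from 0.0157 to 54.3 CPM in the THP-1 overexpression libraries and from 3.30 to 113.2 CPM under the drug.

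Among 43 tested myeloid transcription factors, 3 were higher in U937 and 11 higher in THP-1, with a median log2 difference of -0.004 over the list (5 and 15 without U937 2; 1 higher in U937 without U937 1, THP-1 1 or THP-1 3). For this and each list below, the shares over all genes tested were 11.4% higher in U937 and 14.8% higher in THP-1. Without U937 2, calls over all genes rose from 3583 to 6111, and list counts from that fit are to be read beside this rise. Each fit applied the filter anew, so the number tested in a list can differ between fits. The core monocytic factors were on in both lines. CEBPA, the granulocyte and monocyte regulator, was at 203, 194 and 211 CPM in U937 and 225, 223 and 206 CPM in THP-1, a difference that missed the threshold (adjusted p = 0.349). SPI1 was 1.29-fold higher in THP-1 (adjusted p = 0.0171), a call that was lost without U937 1, U937 3, THP-1 1 or THP-1 2 (highest adjusted p = 0.0822). IRF8, the factor that directs progenitors to monocytes, was higher in THP-1, at 193, 214 and 242 CPM against 136, 131 and 135 CPM (log2 difference -0.69, adjusted p = 0.00213). GFI1, a repressor that favours granulocytes over monocytes, was higher in U937, at 275, 248 and 279 CPM against 185, 171 and 172 CPM (log2 difference 0.61, adjusted p = 0.00171). These 2 regulators of alternative fates thus differed in opposite directions, each by less than 2-fold. Larger differences came from factors with lower counts. MEF2C, active in monocytes and lymphoid progenitors, was 6.88-fold higher in THP-1, at 71.9, 76.9 and 82.2 CPM against 12.2, 8.74 and 12.6 CPM. KLF4, a factor of monocyte maturation, was 2.23-fold higher and GATA2, a progenitor and mast cell factor, 4.13-fold higher in THP-1. ZEB1, a repressor of epithelial genes, stood at 0.0971 to 0.228 CPM in U937 and at 1.77 to 2.97 CPM in THP-1.

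The HOX and MEIS list leaned to THP-1: 11 of 21 tested genes were higher there and 2 higher in U937, with a median log2 difference of -0.50 (13 and 2 of 22 without U937 2, and 1 higher in U937 without THP-1 2). HOXA9, the leukemia-associated gene of the HOXA cluster, was at 82.1, 162 and 84.4 CPM in U937 and 91.6, 97.5 and 101 CPM in THP-1. Its value in U937 2 lay above all other libraries, and the difference did not pass the test (adjusted p = 0.660). Without U937 2 HOXA9 was higher in THP-1 (log2 difference -0.22, adjusted p = 0.0202). HOXA11 was 2.18-fold higher in THP-1, at 84.4, 84.1 and 74.5 CPM against 36.2, 38.1 and 37.1 CPM. The cofactors differed in both directions. MEIS1 was higher in U937, at 106, 134 and 110 CPM against 60.3, 75.6 and 80.8 CPM (log2 difference 0.69, adjusted p = 0.0109), while PBX3 was 2.49-fold higher in THP-1. HOXB4 and HOXB3 were low in THP-1, near 1 CPM, and at or below 0.253 CPM in U937. The fusion partner genes PICALM, KMT2A and MLLT3 did not pass the test, at log2 differences of 0.03, 0.02 and -0.06. MLLT10 was 1.47-fold higher in THP-1 (adjusted p = 0.0136), a call lost without U937 1, U937 3, THP-1 2 or THP-1 3. Gene counts do not show fusion transcripts.

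Of 10 tested stem and progenitor markers 3 were higher in THP-1 and 1 higher in U937. Without U937 2 these were 8 and 1 of 12 tested. Of 11 tested, 5 were higher in THP-1 without THP-1 1, and 0 higher in U937 without THP-1 2. The median log2 difference was -0.42. FLT3, a receptor tyrosine kinase of progenitors, was at 24.0, 26.7 and 29.2 CPM in THP-1 and at 3.79, 5.05 and 4.17 CPM in U937 (log2 difference -2.62, SE 0.15, adjusted p = 9.06e-05). SOX4, a factor of immature leukemia cells, was 1.84-fold and the interleukin-3 receptor chain IL3RA 2.59-fold higher in THP-1. The stem cell antigen CD34 was at or below 0.231 CPM in all 6 libraries and was not tested. KIT lay between 2.10 and 2.67 CPM and did not pass the test.

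**Figure D4:**
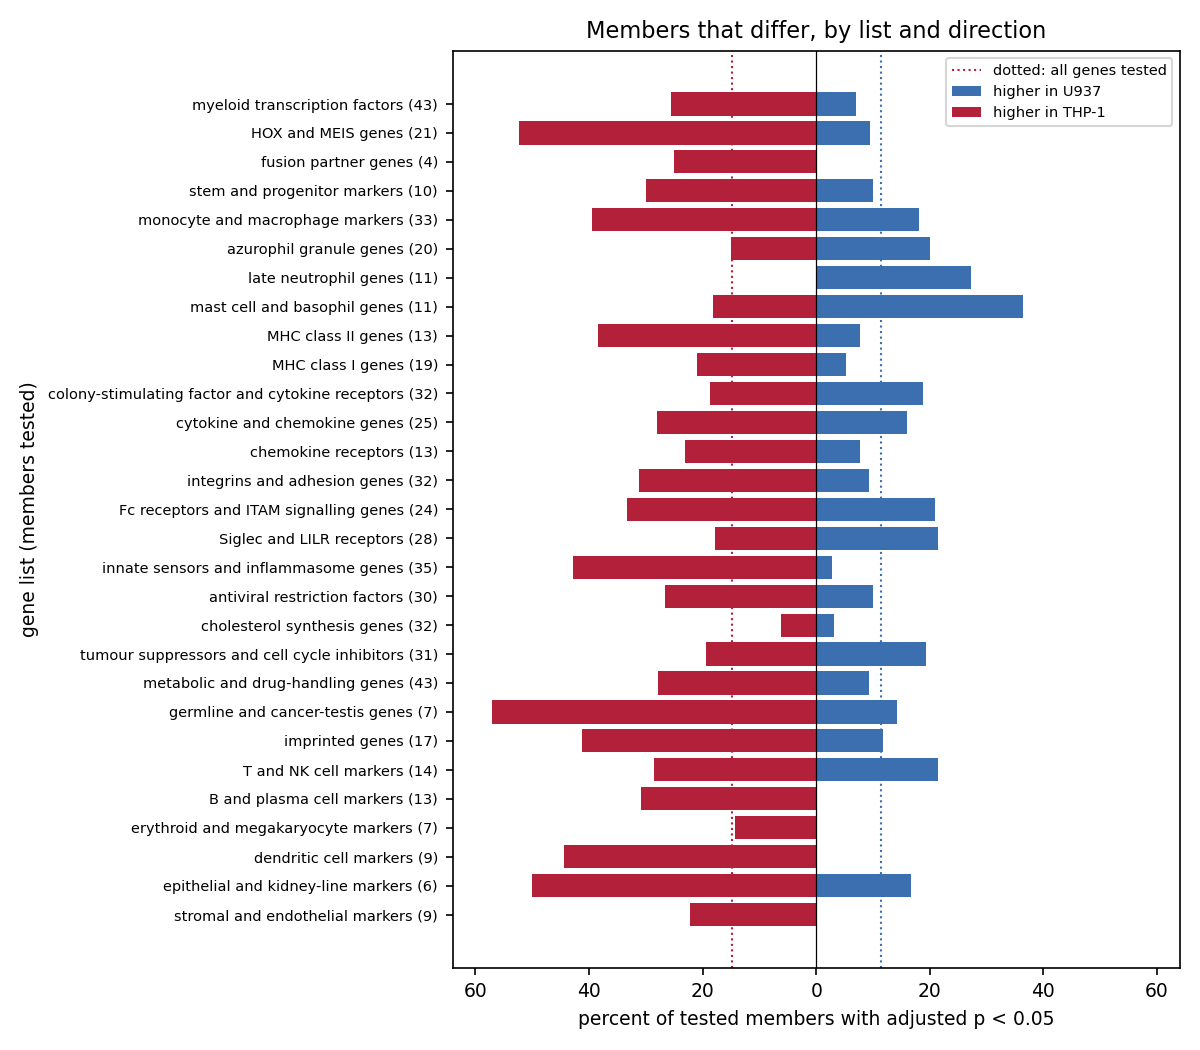
Share of the tested members of each gene list (horizontal axis, percent) that were higher in THP-1 (bars to the left) or higher in U937 (bars to the right) at an adjusted p below 0.05. Dotted lines mark the shares of all 13695 genes tested, 14.8% and 11.4%. Most lists reach past the left line, with small lists such as the 7 germline genes among the longest bars.

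Monocyte and macrophage markers differed in both directions, with 6 of 33 tested genes higher in U937 and 13 higher in THP-1 and a median log2 difference of -0.38 (9 and 17 of 35 without U937 2, and 3 of 34 higher in U937 without THP-1 2). Their summed level was close, 1440 to 1570 CPM in U937 and 1577 to 1738 CPM in THP-1. CCR2, the receptor that draws monocytes out of the marrow, was at 30.6, 29.8 and 32.4 CPM in THP-1 and at 1.85, 0.680 and 1.58 CPM in U937 (log2 difference -4.51, SE 0.33, adjusted p = 0.000201). VCAN, a matrix proteoglycan made by classical monocytes, was 42.1-fold higher in THP-1, at 14.9 to 17.8 CPM. CSF1R, the receptor of macrophage colony-stimulating factor, was at 13.1, 17.4 and 18.5 CPM against 2.99, 2.14 and 3.09 CPM. CD4, also a monocyte surface protein, was at 298, 315 and 344 CPM against 139, 164 and 135 CPM, and the integrin chain ITGAM was 2.34-fold higher in THP-1. In the other direction, CD68, a lysosomal membrane protein, was at 90.8, 116 and 88.1 CPM in U937 and at 30.0, 33.3 and 34.4 CPM in THP-1 (log2 difference 1.60, adjusted p = 0.000243). MERTK, a receptor for the uptake of apoptotic cells, was at 19.6, 29.5 and 20.4 CPM against 8.70, 10.3 and 10.8 CPM, and CD36, given above, was 7.23-fold higher in U937. The lysozyme gene LYZ was at 489, 242 and 520 CPM in U937 and 324, 331 and 342 CPM in THP-1. These values overlapped through U937 2, and the difference did not pass the test (adjusted p = 0.411).

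Receptors for chemokines, antibodies and sialic acids followed similar lines. Besides CCR2, the receptors CCR1 and CX3CR1 were higher in THP-1, 2.80-fold and 2.25-fold, and made 3 of 13 tested chemokine receptors (5 of 14 without U937 2). FPR2, which binds formyl peptides, was the 1 gene of that list higher in U937, at 11.2, 8.00 and 10.2 CPM against 3.47, 3.04 and 2.40 CPM. Of 24 tested Fc receptor and ITAM signalling genes 5 were higher in U937 and 8 higher in THP-1 (6 and 11 without U937 2; 5 higher in THP-1 without THP-1 2). FCGR2B, the inhibitory IgG receptor, was 4.67-fold higher in THP-1 and FCER2, the low-affinity IgE receptor, 3.35-fold, at 75.0, 101 and 96.7 CPM against 30.7, 24.0 and 26.7 CPM. FCGR2B and FCGR2C are near copies that can share reads. In U937 the phospholipase PLCG1 was 1.79-fold, the adaptors LAT and LCP2 1.85-fold and 1.48-fold and the kinase FGR 1.47-fold higher. Siglec genes encode sialic acid receptors and LILR genes immunoglobulin-like receptors. SIGLEC5, SIGLEC7 and SIGLEC9 were 2.08-fold, 1.73-fold and 2.89-fold higher in U937, and LILRA1 was 2.88-fold higher in THP-1 beside the silent LILRB4. Over the list of 28 tested genes, 6 were higher in U937 and 5 higher in THP-1 (9 and 8 without U937 2; 2 to 3 higher in THP-1 without THP-1 1 or THP-1 2; 3 higher in U937 without U937 1, U937 3 or THP-1 2). Many of these receptors are close relatives.

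Among receptors for growth factors and cytokines, 6 of 32 were higher in each line, beside 11.4% (U937) and 14.8% (THP-1) of all genes tested. Without U937 2, where calls over all genes also rose, 8 of 33 were higher in U937 and 14 in THP-1. Without THP-1 2 there were 3 higher in U937. The granulocyte-macrophage colony-stimulating factor receptor chain CSF2RA was higher in U937, at 25.5, 27.2 and 26.0 CPM against 14.3, 14.7 and 14.1 CPM, opposite in direction to CSF1R, FLT3 and IL3RA. The interleukin-7 receptor IL7R was 7.90-fold higher in THP-1. Of 32 tested integrin and adhesion genes 3 were higher in U937 and 10 higher in THP-1 (6 and 15 of 33 without U937 2, and 1 higher in U937 without THP-1 2). ALCAM, a ligand of CD6, was at 65.3, 73.3 and 73.3 CPM in THP-1 and 30.5, 27.1 and 30.7 CPM in U937, and ITGB7 was 6.77-fold higher in THP-1. ITGA3, a laminin receptor chain, was 2.21-fold higher in U937.

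Primary granule genes belong to promyelocytes and early monocytes, and 14 to 15 of the 20 measured reached 1 CPM in the U937 libraries and 17 to 18 in the THP-1 libraries. Of the 20 tested, 4 were higher in U937 and 3 higher in THP-1 (9 and 3 without U937 2), with a median log2 difference of -0.010. The abundant proteases varied most within U937. CTSG, cathepsin G, was at 1410, 599 and 1486 CPM in U937 and at 973, 873 and 904 CPM in THP-1, and PRTN3, proteinase 3, at 210, 58.4 and 196 CPM against 123, 120 and 124 CPM. In both cases U937 2 lay below and the other two U937 libraries above every THP-1 library, and neither gene passed the test. ELANE, neutrophil elastase, was at 264, 150 and 249 CPM against 251, 254 and 255 CPM. MPO, myeloperoxidase, was low in both and higher in THP-1, at 4.90, 3.38 and 3.96 CPM against 0.948, 0.602 and 0.457 CPM (log2 difference -2.62, adjusted p = 0.00126). CST7, a protease inhibitor of granule cells, was higher in U937, at 644, 608 and 643 CPM against 433, 416 and 400 CPM. NKG7 and SERPINB1 were 1.58-fold and 1.38-fold higher there. A difference of at least 4-fold was reached by 1 of the 4 granule genes higher in U937 and by all 3 higher in THP-1. Of 11 tested genes of late neutrophils, 3 were higher in U937 and 0 in THP-1 (3 and 1 of 12 without U937 2). Among them MMP9, a secreted protease, was at 1.85, 4.93 and 2.45 CPM against 0.776, 0.342 and 0.475 CPM. Of 11 tested mast cell and basophil genes 4 were higher in U937 and 2 in THP-1 (4 and 3 without U937 2; 2 higher in U937 without any other one library). Of the 4 higher in U937, 0 differed at least 4-fold, while the 2 higher in THP-1 did. In this list 1 gene was silent in U937 and on in THP-1. The tryptases TPSAB1 and TPSB2 were among the 4, at 2.08-fold and 2.23-fold. TPSB2 was at 21.2, 21.5 and 22.0 CPM against 8.91, 9.71 and 10.4 CPM, and reads of this near-identical pair can be shared.

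Of 35 tested innate sensors and inflammasome genes, 15 were higher in THP-1 and 1 higher in U937, with a median log2 difference of -0.40 (25 and 1 without U937 2). No gene of the list was higher in U937 without any one of the other 5 libraries. TLR2, a receptor for bacterial lipopeptides, was at 38.1, 40.2 and 46.2 CPM in THP-1 and at 16.6, 22.4 and 16.6 CPM in U937. CD180, a relative of the Toll-like receptors, was 5.94-fold higher in THP-1. TLR8, a sensor of single-stranded RNA, had no count in U937 and 0.614 to 0.704 CPM in THP-1. NOD2, a sensor of bacterial cell wall, was 3.75-fold higher in THP-1. A sensor, an adaptor and a protease of one inflammasome differed together. NLRP3, the sensor, was at 65.3, 67.9 and 70.1 CPM in THP-1 against 35.5, 29.7 and 34.1 CPM, the adaptor PYCARD was 1.39-fold and the protease CASP1 1.70-fold higher. Other sensors differed more, with NLRC4 at 3.42-fold and MEFV, the pyrin gene, at 6.94-fold. STING1, the adaptor of DNA sensing, was 1.32-fold higher in THP-1. For each of these genes, which were named from members that passed the test, the 2 groups did not overlap. Over all genes tested the groups did not overlap for 45.4%. Of 25 tested cytokine genes 4 were higher in U937 and 7 higher in THP-1 (4 and 9 without U937 2; 4 higher in THP-1 without U937 1 or THP-1 1; 2 higher in U937 without THP-1 3). TNF was at 10.1, 8.97 and 7.80 CPM in THP-1 and at 2.33, 0.738 and 2.30 CPM in U937, and the receptor antagonist IL1RN was 2.30-fold higher in THP-1.

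Among 30 tested antiviral factors 8 were higher in THP-1 and 3 higher in U937 (12 and 5 without U937 2; 0 higher in U937 without THP-1 1 or THP-1 2). SAMHD1, which degrades deoxynucleotides and also inactivates the active form of cytarabine, was the clearest. It was at 96.1, 91.8 and 95.4 CPM in THP-1 and at 8.60, 6.54 and 8.15 CPM in U937, a 12.2-fold difference (log2 -3.61, SE 0.12, adjusted p = 3.50e-05). In the rest of the series SAMHD1 stayed between 5.12 and 6.14 CPM in the knockdown U937 libraries and between 55.7 and 108.8 CPM in the other THP-1 libraries. OAS2, an interferon-induced RNA sensor, was 4.26-fold, TRIM22 2.21-fold and IFITM1 2.03-fold higher in THP-1.

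Of 13 tested MHC class II genes, with the invariant chain and a processing protease among them, 5 were higher in THP-1 and 1 higher in U937 (6 and 2 without U937 2). The invariant chain CD74 was at 73.0, 81.1 and 87.1 CPM in THP-1 and at 32.9, 43.2 and 34.3 CPM in U937. HLA-DRA, the shared chain of HLA-DR, went the other way, at 0.396, 0.966 and 0.871 CPM in THP-1 and 2.58, 3.38 and 2.82 CPM in U937 (log2 difference 1.98, adjusted p = 0.00640). Over the whole series HLA-DRA ran from 2.56 to 8.24 CPM in U937 and from 0.394 to 4.66 CPM in THP-1, so the ranges overlapped. The overlap came from THP-1 with overexpression and drug (3.81 to 4.66 CPM), while overexpression alone gave 1.92 to 2.19 CPM. HLA-DQB1 had no count in U937 and 1.01, 1.25 and 2.08 CPM in THP-1. HLA genes vary between people and resemble one another, so reads of some alleles may not be counted. Of 19 tested MHC class I and processing genes, 4 were higher in THP-1 and 1 higher in U937 (9 and 3 without U937 2; 2 higher in THP-1 without any other one library). PSMB10, an immunoproteasome subunit, was 1.56-fold higher in THP-1, and HLA-F was 2.45-fold higher in U937.

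Metabolic and drug-handling genes gave 12 higher in THP-1 and 4 higher in U937 of 43 tested, and 9 of the 12 differed at least 4-fold. The median log2 difference of the list was 0.005. Without U937 2 the counts were 15 and 12, and without THP-1 2 or THP-1 3 there was 1 higher in U937. The glutathione transferases of the mu class went together. GSTM1 was at 8.57, 9.29 and 9.24 CPM in THP-1 and at 0.0972, 0.0777 and 0.104 CPM in U937 (log2 difference -6.57, SE 0.21, adjusted p = 3.25e-05). GSTM4 had no count in U937 and was at least 134-fold higher in THP-1, GSTM3 had none against 0.957, 1.87 and 1.39 CPM, and GSTM2 was 6.66-fold higher in THP-1. These genes lie side by side on chromosome 1 and are alike in sequence, so their reads can be shared. ALDH2, which oxidises acetaldehyde, was at 14.2, 16.1 and 17.0 CPM against 0.607, 0.932 and 0.477 CPM. GATM, of creatine synthesis, was 31.3-fold higher in THP-1, and CYP1B1, a cytochrome of steroid and xenobiotic oxidation, had no count in U937. Of 32 tested cholesterol genes 2 were higher in THP-1 and 1 higher in U937 (6 and 7 without U937 2, and 10 and 2 in a fit of all 18 libraries; 0 higher in U937 without THP-1 2 or THP-1 3). The 2 were HSD17B7 and ABCA1. ABCA1, which exports cholesterol from cells, was at 17.8, 25.4 and 33.4 CPM in THP-1 and at 0.364, 0.214 and 0.311 CPM in U937, an 86.4-fold difference.

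Tumour suppressors and cell cycle inhibitors split evenly, with 6 of 31 higher in each line (9 in U937 and 8 in THP-1 without U937 2; as few as 3 in U937 without THP-1 2 or THP-1 3; 2 to 3 in THP-1 without any one library other than U937 2). KDM6A, a histone demethylase gene on chromosome X, was 2.17-fold higher in U937, at 49.6 to 55.0 CPM against 24.4, 24.7 and 22.1 CPM. CDKN1B, the inhibitor p27, was 1.44-fold higher in U937. WT1, overexpressed in many leukemias, was 7.48-fold higher in THP-1, at 9.99, 8.33 and 10.1 CPM against 1.39, 1.40 and 1.02 CPM. Germline genes that leukemias can express were mainly absent: 15 of the 26 measured were silent in both lines. Of the 7 tested, 4 were higher in THP-1 and 1 higher in U937, also without U937 2. MAGEB2 had no count in U937 and 15.5, 14.1 and 15.7 CPM in THP-1, and PRAME was 6.37-fold higher in THP-1. Among 17 tested imprinted genes 7 were higher in THP-1 and 2 in U937, also without U937 2. SGCE and PEG10, neighbours on chromosome 7, were 8.09-fold and 4.37-fold higher in THP-1, and SNRPN was at 47.4, 48.7 and 54.8 CPM against 17.1, 22.6 and 20.6 CPM.

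Markers of other cell types were examined in the same libraries. Of 32 measured T and NK cell markers 13 were silent in both lines, and of 14 tested 3 were higher in U937 and 4 in THP-1 (3 and 6 of 15 without U937 2). Their summed level was 142 to 147 CPM in U937 and 111 to 123 CPM in THP-1. GZMA, a protease of killer cells, was 9.05-fold higher in THP-1, at 11.2, 8.57 and 7.74 CPM. Of 13 tested B cell markers 4 were higher in THP-1 and 0 in U937 (6 and 1 without U937 2). IGLL1, the surrogate light chain of early B cells, was at 66.3, 77.3 and 74.2 CPM in THP-1 against 6.56, 5.50 and 6.37 CPM (log2 difference -3.56, adjusted p = 3.25e-05). CD79A was 2.31-fold higher in THP-1. PAX5, which defines B cells, was at 17.8, 1.28 and 16.2 CPM in U937 and at 10.5, 10.2 and 10.4 CPM in THP-1, so that U937 2 lay below all others. Summed, B cell markers reached 207 to 254 CPM in U937 and 276 to 347 CPM in THP-1. The defining erythroid marker GATA1 was at or below 0.0486 CPM, and of 7 tested erythroid and megakaryocyte markers 1 was higher in THP-1 (3 of 8 without U937 2). Epithelial and kidney-line markers summed to 0.972 to 2.35 CPM in U937 and 4.11 to 7.50 CPM in THP-1 and of 6 tested 3 were higher in THP-1 and 1 in U937, the latter 0 without any one library other than U937 2. KRT14 had no count in U937 and 0.809, 1.35 and 1.98 CPM in THP-1. Dendritic cell markers gave 4 of 9 higher in THP-1 and 0 in U937 (2 in U937 without U937 2 and 1 without THP-1 1), with CADM1 9.19-fold higher, and stromal and endothelial markers 2 of 9 (3 without U937 2, with 1 in U937). The part of other cells in these values was not tested.

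Medians over the genes of a chromosome were not all near 0. On chromosome X the median log2 difference of 465 tested genes was 0.54, with 256 higher in U937 and 66 higher in THP-1. It was 0.53 without U937 2 and 0.18 between the libraries not used here, knockdown U937 against overexpression THP-1. X also held 26 of the silent genes, 6.67% of its genes on in THP-1, against 2.26% over all genes. This share was the highest, followed by 5.45% on chromosome 8 and 4.94% on chromosome 18, and the lowest was 0.524% on chromosome 16. On chromosome 20 the median was 0.39 over 377 genes, with 160 higher in U937 and 29 in THP-1, and it was 0.39 without U937 2 and 0.36 in the libraries not used. Chromosomes 18 and 7 leaned to THP-1, with medians of -0.22 and -0.17, and of -0.42 and -0.32 in the libraries not used. The medians of the other chromosomes lay between -0.10 and 0.11. Genes named above lie on these chromosomes, among them KDM6A on X, CST7 and PLCG1 on 20, and HOXA11 on 7. The number of chromosome copies was not measured, and copy number and transcription cannot be told apart from gene counts. Y-linked genes and XIST stayed in the fit and its totals but are not reported as genes.

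**Figure D5:**
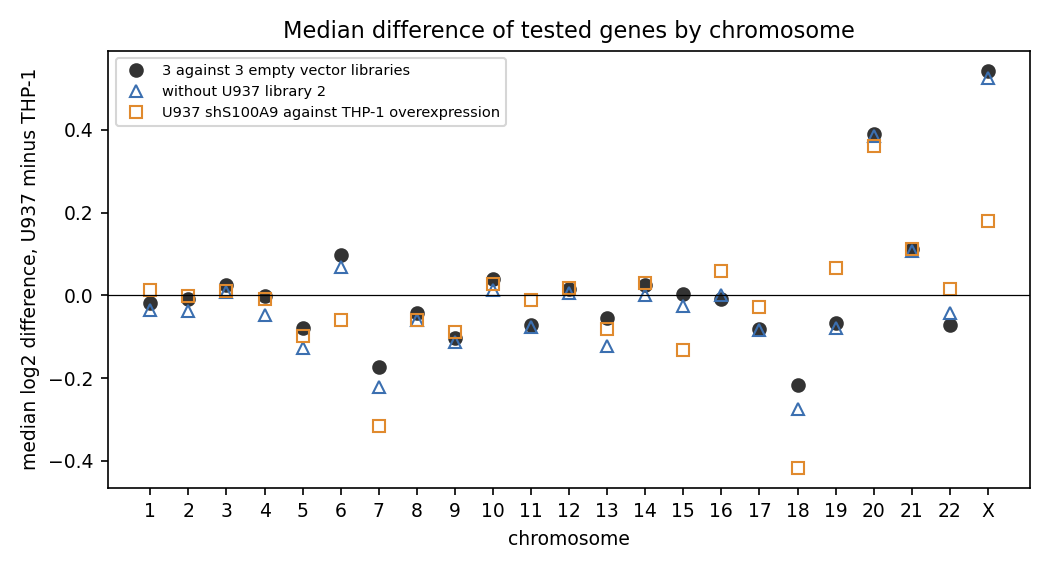
Log2 difference between U937 and THP-1 for the tested genes of each chromosome (horizontal axis), as the median (vertical axis, log2 difference, U937 minus THP-1) in the empty vector libraries (filled circles), without U937 2 (triangles) and between the knockdown and overexpression libraries (squares). Chromosomes X and 20 lie above the others with medians of 0.54 and 0.39, and 18 lies lowest with -0.22.

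The comparison was repeated in libraries with no sample in common, the 3 knockdown U937 and the 3 overexpression THP-1 libraries, where the line is confounded with S100A9 itself. Of 14049 genes tested 2030 (14.4%) were higher in U937 and 2809 (20.0%) higher in THP-1, and at 4-fold 1209 differed (8.61%), 145 (1.03%) and 1064 (7.57%) in these directions, of 4839 (34.4%) in all. Of 3552 genes that differed between the empty vector libraries and were tested in both, 2562 differed again in the same direction, 30 in the other, and 960 did not pass. Large differences toward THP-1 were found again for 829 of 852 genes, 789 of them at 4-fold. Those toward U937 were found again for 88 of 107, 76 at 4-fold. The one-sided pattern of large differences was thus present in both sets of libraries. CD68 was one value that moved within U937, from 87.5 to 118.1 CPM with the empty vector to 39.7 to 47.1 CPM in the knockdown libraries, which still lay above the highest THP-1 library at 34.0 CPM. CD4 moved too, from 134.3 to 165.9 CPM to 205.8 to 307.0 CPM, which reached the lowest THP-1 libraries at 296.9 CPM.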

How the data were processed

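Raw counts were deposited by the authors as whole numbers in 1 table of 18670 Ensembl genes by 18 libraries, not normalized, and the 6 columns used were matched by the column names quoted in the labels. The submitters' processing notes name HISAT2 2.0.4. The counter, the build, the annotation and strandedness are not stated in the sources used here, so reads of overlapping, antisense or near-identical genes can be shared. Symbols came from a name table (18114 genes) and positions from GENCODE 29 on GRCh38 (18482 genes), which may not be the build of the counting. Promoter sequences came from RefSeq.

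The 6 libraries were fitted with edgeR 4.0.16 in R 4.3.3 (TMM factors, filterByExpr, quasi-likelihood F test, Benjamini-Hochberg adjustment over 13695 genes, threshold 0.05). All adjusted p-values in the text are from this test unless another is named, and a standard error is the log2 difference over the root of F. CPM were computed with TMM-scaled totals of the 6 libraries, and of all 18 where the rest of the series is quoted. Against a group without counts a fold is a lower bound at 3 counts over the group, and counting intervals are exact at 95%. DESeq2 1.42.0, other scalings, filters, a replicate block, a fit of 18 libraries and leaving out each library were alternatives. Y-linked genes and XIST stayed in the fits and their totals and were left out of all lists of genes, the silent genes and the chromosome medians.

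Named genes were S100A9, S100A8 and S100A12, the 10 largest differences in each direction at 10 CPM or more without overlap, the 15 silent genes with the highest CPM, genes of runs, and members of 29 gene lists. Comparisons, lists and rules were chosen with earlier results of these data known. On simulated counts of this layout (13686 genes tested), edgeR called 99 of 100 genes made to differ 2-fold, 100 of 100 made to differ 4-fold, and 15 genes made equal. The simulation gave every gene the same scatter between replicates, and only well-expressed genes were made to differ. No simulated library stood apart as U937 2 did, so these figures need not hold for the real libraries.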

Additional observations from a re-analysis of the deposited data

How the results depend on the processing

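The 3583 genes that differed became 2122 to 6111 in the fits that left out 1 library, with 773 to 2746 higher in U937 and 1349 to 3365 higher in THP-1, lowest without THP-1 2 and highest without U937 2. A fit of all 18 libraries gave 2356 higher in U937. A filter of 1 CPM in 3 libraries, which tests fewer genes, gave 589 genes at 4-fold, 63 higher in U937 and 526 higher in THP-1. Other settings kept these counts over all genes within 1.5 times their value. Counts of list members moved further. DESeq2 gave 5 stem cell, 5 cholesterol and 1 late neutrophil gene higher in THP-1, and 6 antiviral, 7 metabolic, 2 cholesterol, 2 MHC class I, 2 dendritic and 1 stromal gene higher in U937. The fit of 18 libraries gave 10 cholesterol and 2 erythroid genes higher in THP-1, and 7 antiviral, 6 integrin, 5 myeloid factor, 2 mast cell, 2 cholesterol, 2 MHC class I, 2 MHC class II and 1 stromal gene higher in U937. The filter of 1 CPM left 4 imprinted, 1 epithelial, 1 stromal and 0 erythroid genes higher in THP-1, and 1 HOX and 0 epithelial genes higher in U937. Library totals gave 4 cholesterol genes higher in THP-1, and they, DESeq2 size factors and no filter gave 1 stromal gene higher in U937. Replicate numbers did not pair the lines. Deviations of same-numbered libraries from the mean of their own line correlated at 0.317, 0.118 and -0.233, and those of U937 2 and THP-1 3 at 0.318. With a replicate block 2880 genes differed, 971 of them at 4-fold. That fit gave 5 cholesterol genes higher in THP-1 and 2 mast cell, 0 innate sensor and 0 epithelial genes higher in U937. With an on limit of 5 CPM 62 genes were silent in U937 and 0 in THP-1, and with a silent limit of 3 counts over the group 0 in THP-1, while leaving out each library gave 1 to 4 there. Without U937 2 the direction turned to THP-1 for HOXA9 (log2 differences from -0.22 to 0.35 over the fits that left out 1 library); the cause was not tested. Of 137 called genes named in the text, 3 (SPI1, MLLT10 and MTAP) lost their call in at least 1 of the 6 fits that left out 1 library. The depth of 41.9 to 61.4 M counts sets the floor of 0.0213 CPM for a silent gene in U937 and 0.0187 CPM in THP-1.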
